A study of Sus scrofa with 15 samples.

Results

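Genes of the actin cortex and of polar body extrusion were followed through maturation of the pig oocyte. They were chosen by symbol and comprise the actin nucleators *FMN2*, *SPIRE1* and *SPIRE2*, the small GTPases *CDC42* and *RHOA*, the RhoA activator *ECT2*, the central spindle component *RACGAP1*, the ring scaffold *ANLN* and the non-muscle myosin heavy chains *MYH9* and *MYH10*. Of the 10 genes named, 9 had a row among the 22516 genes of the count table, and 8 of these were among the 13230 genes that passed the filter on low counts and were tested. *MYH10* could not be paired with an identifier and was not analysed here.

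RNA of pig (*Sus scrofa*) oocytes was compared in 3 groups of 5 libraries each. GV oocytes, at the germinal vesicle stage, came uncultured from fresh ovarian follicles of abattoir sows and had no polar body. The other groups were matured in vitro for 44 h as cumulus oocyte complexes and sorted under the microscope: MII oocytes showed a polar body, and 'damaged' oocytes did not. Cumulus cells had been removed with hyaluronidase, from GV oocytes as well. The maturation medium, which GV oocytes did not meet, held the gonadotrophins PMSG and HCG, EGF, insulin, cysteamine, antibiotics and follicular fluid, so maturation and this treatment cannot be told apart. Per the study's methods there were 5 independent collections, each giving oocytes of every group. Each library was a pool of oocytes, so fewer oocytes with a transcript and less of it per oocyte cannot be told apart.

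A polar body forms when the meiotic spindle has reached the cortex and a contractile ring closes around its outer end. Spire proteins and the formin FMN2 together nucleate the cytoplasmic actin filaments on which the mouse oocyte's spindle moves, and CDC42 acts at the cortex above the chromosomes. The central spindle carries RACGAP1, which recruits the exchange factor ECT2. ECT2 switches on RhoA, and RhoA drives formin-made filaments and myosin II, which anillin, the product of *ANLN*, ties to the membrane. The comparison of MII with 'damaged' oocytes asks whether transcripts of this machinery differed between matured oocytes with and without a polar body.

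Libraries held 6.40 to 23.6 M estimated counts. GV replicate 3 held the fewest and was left out of the fit, which used 4 GV, 5 MII and 5 'damaged' libraries. Expression is given as CPM, a gene's count relative to the library total after scaling by TMM factors, and changes as log2 fold changes from limma-voom, with a change called at an FDR under 0.01. Values are shares of the polyA RNA read in a library, so a rise or fall is not one in amount per oocyte. The paper states that oocytes stop transcribing when meiosis resumes. The part of polyA tail length or of loss of other RNA in the changes was not tested. Scaling mattered, because the TMM factors were 1.35 to 1.73 in GV and 0.794 to 0.922 in the matured libraries. With these factors the typical gene, taken as the median over all tested, had a log2 fold change of -0.17 for MII against GV and -0.14 for 'damaged' against GV. When only library sizes were used it was -1.09 and -1.01. For the 8 genes tested, values against GV are therefore given under both scalings. In the deposited gene table, 7 of the 15 columns summed to the total of a library that is labelled differently, so groups were taken from the transcript files' labels. The libraries without a fitting column were GV replicates 1 to 3, MII replicates 1 and 2 and 'damaged' replicates 1 and 2. Which of these labels are right could not be settled, and this bears on every value for MII against 'damaged' oocytes. It also bears on values against GV and on the replicate numbers.

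Oocyte markers identified the material. Of 10 listed, 9 were found, and their summed level was 17095 to 19550 CPM on library sizes in GV, 5958 to 8596 in MII and 6821 to 9352 in 'damaged' libraries. Of 14 cumulus and granulosa cell markers, 10 were found, and they summed to 23.5 to 36.4 CPM in GV, 8.04 to 19.5 in MII and 7.91 to 16.5 in 'damaged' libraries. Most of that sum was *SERPINE2*, at 20.9 to 32.5 CPM in GV and 6.52 to 17.1 CPM in the matured libraries. Of the other 9 markers, each at most 2.61 CPM, *AMH* was at 0 in every MII library, while *CYP11A1* had a median of 0 in GV, 0.358 CPM in MII and 0.106 CPM in 'damaged' libraries and *TNFAIP6* was highest in an MII library. The part of these cells in the results below was not tested.

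Between MII and 'damaged' oocytes, none of the 8 genes tested passed the threshold, nor did any among the 8 libraries whose gene-table column fits their label. That smaller fit held only replicates 3 to 5 of each matured group and GV replicates 4 and 5, so it could detect less. Over all genes 0 of 13230, a percentage of 0, passed an FDR of 0.01, and 1.47% had an unadjusted p under 0.05 against 0 of the 8. The counts at that p over all genes were 194 by limma-voom, 272 by the edgeR quasi-likelihood test and 251 by DESeq2, each without a call. Every one of the 8 genes had overlapping CPM ranges in these groups, where 0.272% of all genes had none. The FDR was 0.999963 for each, and the log2 fold changes lay between -0.05 and 0.49. A missed threshold does not show equal levels, so the intervals are given gene by gene.

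The narrowest intervals belonged to *ECT2* and *CDC42*. For *ECT2* the log2 difference, MII against 'damaged', was 0.14 with a 95% interval of -0.13 to 0.40, or 0.911 to 1.32 fold. For *CDC42* it was 0.01 (-0.27 to 0.28). *ANLN* gave 0.16 (-0.12 to 0.45), a range of 0.921 to 1.36 fold. All 3 intervals thus lay within a doubling in either direction, and so did the following 4. *FMN2* was at -0.05 (-0.37 to 0.28) and *SPIRE1* at 0.01 (-0.35 to 0.37). *RHOA* was at 0.03 (-0.31 to 0.36) and *RACGAP1* at 0.20 (-0.20 to 0.60). For *MYH9* alone, the gene with the fewest counts, the interval of -0.20 to 1.18 around 0.49 reached past a doubling. Signs of *CDC42*, *RHOA* and *SPIRE1*, at differences this close to 0, turned on library sizes alone.

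**Figure D1:**
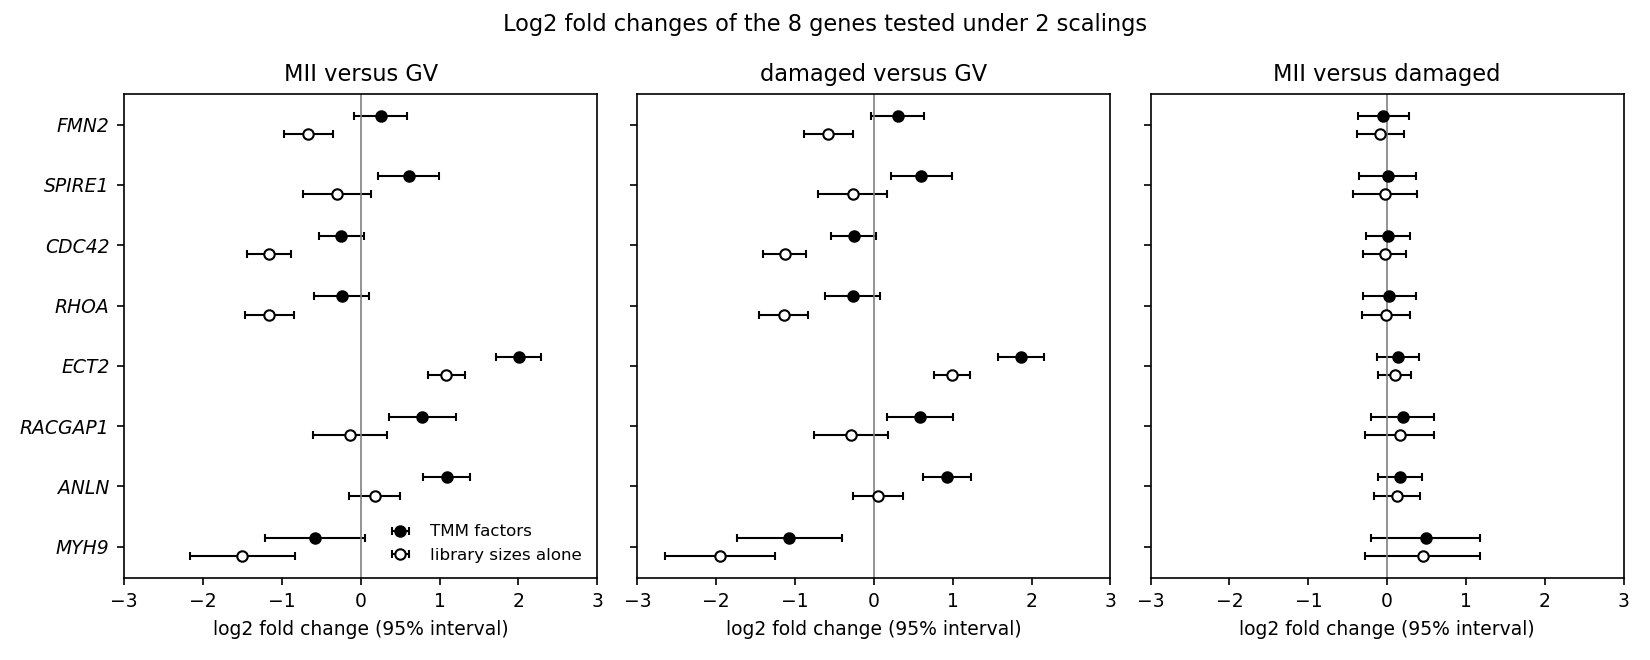
Log2 fold changes (x axis) of the 8 genes tested, with 95% intervals, for MII against GV, 'damaged' against GV and MII against 'damaged'; filled points use TMM factors and open points library sizes alone. The 8 intervals of MII against 'damaged' all contain 0, while against GV the points of *ECT2* and *ANLN* lie above 0 and those of *CDC42*, *RHOA* and *MYH9* below it under both scalings, and those of *FMN2*, *SPIRE1* and *RACGAP1* change sign between them.

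Against GV, 4 of the 8 genes rose in MII oocytes and 0 fell, namely *ECT2*, *ANLN*, *RACGAP1* and *SPIRE1*. In 'damaged' oocytes 3 rose, *ECT2*, *ANLN* and *SPIRE1*, and 1 fell, *MYH9*. Of all genes tested, 62.4% changed in MII (28.2% rose and 34.2% fell) and 61.4% in 'damaged' oocytes (28.0% rose and 33.4% fell), so the counts stand against a background in which most genes were called. On library sizes alone, 1 of the 8 rose (*ECT2*) and 4 fell (*FMN2*, *CDC42*, *RHOA* and *MYH9*) in each matured group, where 68.5% and 67.1% of all genes changed, 10.9% and 11.2% upwards and 57.5% and 56.0% downwards. Both comparisons use the same GV libraries. Each gene is described in turn below.

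**Figure D2:**
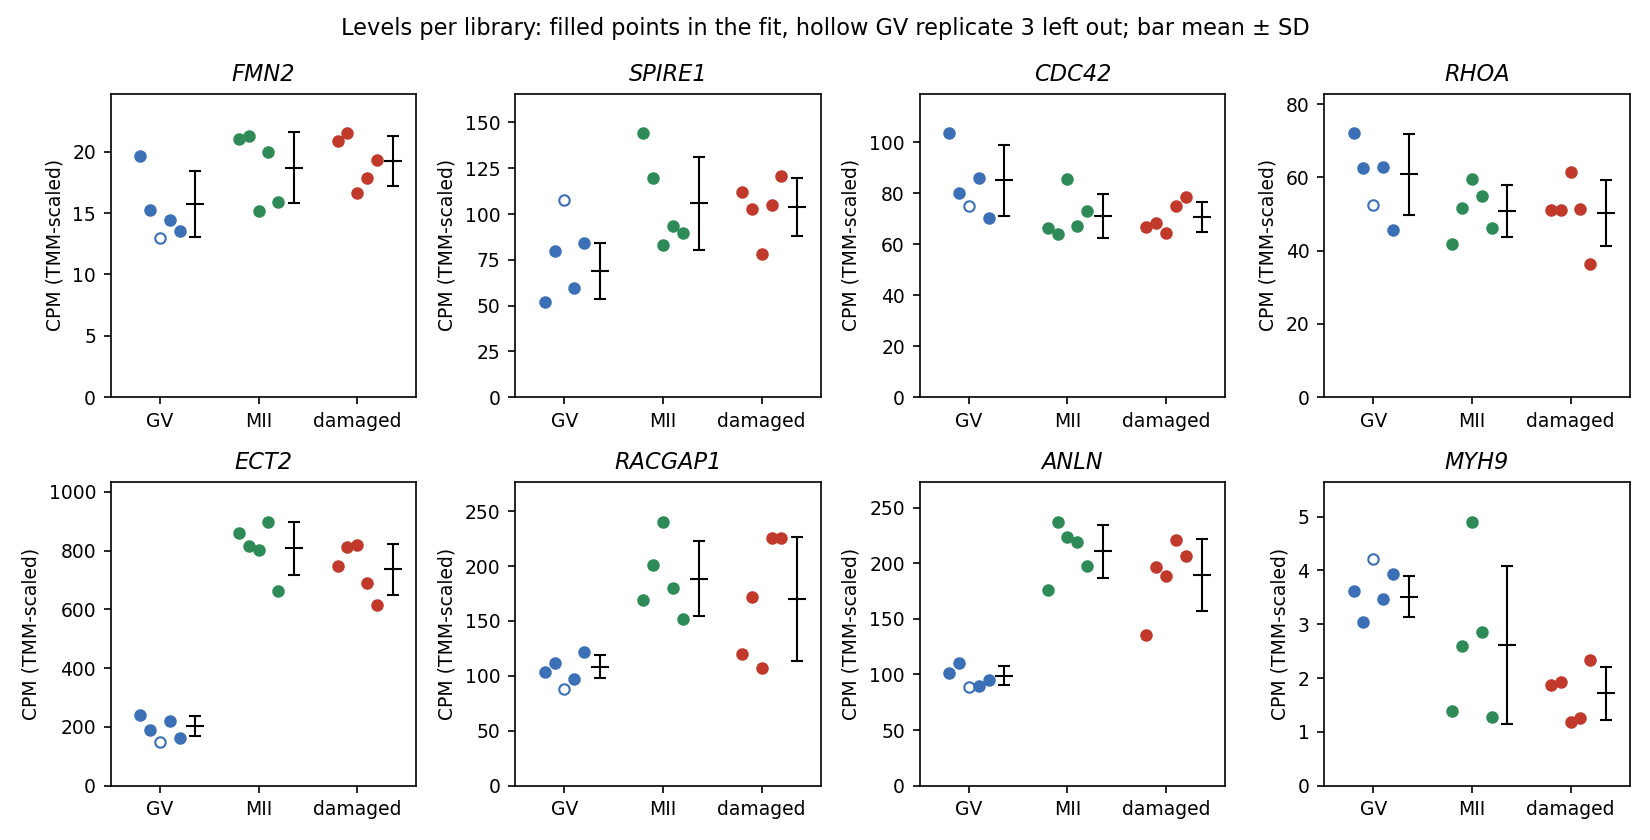
CPM scaled by TMM factors (y axis, from 0) of the 8 genes in each library of the 3 groups, with the mean ± SD beside the points; the hollow point is GV replicate 3, which was left out of the mean and the fit. *ECT2* and *ANLN* separate GV from both matured groups on this scale, and no gene separates MII from 'damaged'. Of all genes, 27.0% lay above GV without overlap in MII and 26.6% in 'damaged' oocytes.

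Cytoplasmic actin filaments are made by FMN2 with the Spire proteins. *FMN2*, on a sequence not placed on a chromosome, had 19.6, 15.2, 14.5 and 13.5 CPM in GV replicates 1, 2, 4 and 5. In MII replicates 1 to 5 it had 21.0, 21.3, 15.2, 20.0 and 15.9 CPM, and in 'damaged' replicates 1 to 5 20.8, 21.5, 16.6, 17.9 and 19.3 CPM. The groups overlapped. The log2 fold change was 0.25 ± 0.16 (SE) in MII (FDR 0.172) and 0.30 ± 0.16 in 'damaged' oocytes (FDR 0.104), neither past the threshold. With library sizes alone the sign turned, to -0.67 (FDR 0.000511) and -0.58 (FDR 0.00171). Relative to the median of all genes, the value for MII was 0.42 under either scaling and that for 'damaged' 0.44 with TMM factors and 0.43 without. Subtracting the median takes out most of the scaling, so the match of these values was largely fixed in advance. With only genes above 10 CPM tested, *FMN2* was at -0.0796 in MII and -0.0148 in 'damaged' oocytes (FDR 0.651 and 0.934).

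*SPIRE1* (chromosome 6, 96934023 to 97114591, Sscrofa11.1), which binds FMN2 and nucleates filaments with it, had 52.1, 79.6, 59.7 and 84.4 CPM in the 4 GV libraries. Its MII values were 144, 119, 83.2, 93.4 and 89.7 CPM, and its 'damaged' values 112, 103, 78.2, 105 and 121 CPM. The highest GV library reached into the lower end of both matured groups. *SPIRE1* rose by a log2 fold change of 0.61 ± 0.18 in MII (FDR 0.00592) and 0.60 ± 0.18 in 'damaged' oocytes (FDR 0.00666), but on library sizes alone it turned to -0.30 (FDR 0.190) and -0.27 (FDR 0.242). Both calls were near the threshold. Without GV replicate 1, GV replicate 4, MII replicate 1 or MII replicate 2 the call for MII was lost, at FDR 0.0211, 0.0224, 0.0199 and 0.0176. That for 'damaged' was lost without GV replicate 1 or 4 or without 'damaged' replicate 1, 2, 4 or 5, at FDR 0.0231, 0.0246, 0.0161, 0.0128, 0.0137 and 0.0148. In GV replicate 3, left out of the fit, *SPIRE1* stood at 108 CPM, above the other GV libraries, and with all 5 GV libraries the FDR was 0.0288 and 0.0324.

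*SPIRE2*, the paralog of *SPIRE1* (chromosome 6, 211480 to 246109), was close to absent. It had 2, 0, 3, 0 and 3 counts in GV replicates 1 to 5 and 0 counts in all 10 matured libraries. A count of 0 allows up to 3 counts, or 0.127 to 0.233 CPM per matured library, by counting error only. No test was made because the gene did not pass the filter, and its end overlaps an annotated long non-coding RNA. Of the Spire pair, *SPIRE1* thus carried nearly all transcripts. Per length, *SPIRE1* stood at 37.4 ± 13.7 TPM (SD, n = 4) in GV, against 0.0494 ± 0.0616 for *SPIRE2* and 10.6 ± 0.690 for *FMN2*.

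Among the small GTPases, *CDC42* (chromosome 6, 80035034 to 80089243) had 104, 80.1, 86.0 and 70.2 CPM in GV. In MII it had 66.4, 63.8, 85.4, 67.3 and 72.9 CPM and in 'damaged' oocytes 66.6, 68.1, 64.5, 75.1 and 78.4 CPM. Matured libraries were on the low side of GV but overlapped with it. Its log2 fold changes, -0.25 ± 0.14 in MII (FDR 0.112) and -0.26 ± 0.14 in 'damaged' oocytes (FDR 0.102), did not pass. On library sizes alone *CDC42* fell, by 1.17 (FDR 2.24e-07) and 1.13 (FDR 3.37e-07), and every matured library lay below every GV library, as for 54.6% of all genes in MII and 52.0% in 'damaged' oocytes.

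*RHOA* (chromosome 13, 31918484 to 31991207) encodes the GTPase that organises the contractile ring. Its CPM were 72.1, 62.6, 62.8 and 45.7 in GV, 41.9, 51.6, 59.7, 55.0 and 46.1 in MII, and 51.0, 51.1, 61.5, 51.5 and 36.3 in 'damaged' oocytes, with overlap throughout. The log2 fold changes were -0.24 ± 0.17 in MII (FDR 0.198) and -0.27 ± 0.17 in 'damaged' oocytes (FDR 0.153). As for *CDC42*, library sizes alone gave a fall, by 1.16 (FDR 9.64e-07) and 1.14 (FDR 1.19e-06). Relative to the median of all genes, *CDC42* was at -0.08 in MII and -0.12 in 'damaged' oocytes and *RHOA* at -0.07 and -0.13. Both fell, however, when only genes above 10 CPM were tested. *CDC42* was then at -0.58 in MII (FDR 0.000512) and -0.57 in 'damaged' oocytes (FDR 0.000593), and *RHOA* at -0.57 (FDR 0.00319) and -0.58 (FDR 0.00275).

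The switch that loads RhoA with GTP showed the largest rise of the 8 genes under both scalings. *ECT2* (chromosome 13, 111248215 to 111310746) had 242, 189, 219 and 163 CPM in GV. It reached 861, 818, 803, 899 and 662 CPM in MII and 747, 812, 819, 690 and 614 CPM in 'damaged' oocytes. Every matured library lay above every GV library, as was the case for 27.0% of all genes in MII and 26.6% in 'damaged' oocytes. *ECT2* rose by a log2 fold change of 2.0 ± 0.14 in MII (FDR 2.09e-10), a fold of 4.01, and of 1.87 ± 0.14 in 'damaged' oocytes (FDR 5.66e-10), a fold of 3.65. The rise was 1.09 (FDR 5.16e-08) and 0.99 (FDR 1.81e-07) on library sizes alone, and here too every matured library lay above GV, against 10.7% and 10.9% of all genes. In 11 settings, ways of scaling, filtering and testing, it stayed between 1.09 and 2.09 in MII and between 0.99 and 1.95 in 'damaged' oocytes, and was called in each. A DEG by the study's criteria also needs an absolute log2 fold change over 2, which 21.6% of all genes met in MII and 20.5% in 'damaged' oocytes. *ECT2* met it in MII, at 2.0021, and did not meet it in 'damaged' oocytes, while leaving out single libraries moved the value for MII from 1.90 to 2.11.

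*RACGAP1* (chromosome 5, 15894314 to 15943619), the central spindle GTPase-activating protein that binds ECT2, had 103, 111, 97.5 and 122 CPM in GV. Its MII values were 169, 201, 240, 180 and 152 CPM, all above GV, as for 27.0% of all genes. The 'damaged' values spread more widely, at 120, 172, 107, 226 and 225 CPM, with replicates 1 and 3 within the GV range. *RACGAP1* rose in MII, by 0.78 ± 0.20 (FDR 0.00187), and stood at 0.58 ± 0.20 in 'damaged' oocytes (FDR 0.0148), but on library sizes alone both turned, to -0.13 (FDR 0.594) and -0.29 (FDR 0.248). That it passed in MII and not in 'damaged' oocytes does not show a difference between them. The direct comparison by limma-voom gave 0.20 (-0.20 to 0.60), with an unadjusted p of 0.314. Without 'damaged' replicate 1 or 3, *RACGAP1* also passed in 'damaged' oocytes, at FDR 0.00582 and 0.00183. The edgeR quasi-likelihood test and DESeq2 called it there as well (FDR 0.00803 and 0.00288). Within the 8 libraries whose column names fit their totals, its value in MII was 0.81 with an FDR of 0.0306. This compares MII replicates 3 to 5 with only GV replicates 4 and 5.

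The ring scaffold *ANLN* (chromosome 18, 37647952 to 37710939) links actin, myosin and septins at the furrow. It had 101, 110, 90.0 and 94.7 CPM in GV, 176, 237, 224, 219 and 198 CPM in MII, and 136, 197, 188, 221 and 206 CPM in 'damaged' oocytes. All matured libraries were above GV, with 'damaged' replicate 1 the closest, a position held by 27.0% of all genes in MII and 26.6% in 'damaged' oocytes. *ANLN* rose by 1.09 ± 0.14 in MII (FDR 1.37e-06) and 0.93 ± 0.14 in 'damaged' oocytes (FDR 1.09e-05), about a doubling. The direction held on library sizes alone but neither call did, at 0.18 (FDR 0.294) and 0.05 (FDR 0.754). Relative to the median of all genes, *ANLN* stood at 1.26 in MII and 1.06 in 'damaged' oocytes under both scalings. Subtracting the median takes out most of the scaling, so this match was largely fixed in advance and does not bear on the calls.

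*MYH9* (chromosome 5, 11365603 to 11456475), the heavy chain of non-muscle myosin IIA, was the lowest of the 8 genes. It had 3.61, 3.04, 3.47 and 3.94 CPM in GV, 1.39, 2.60, 4.91, 2.86 and 1.28 CPM in MII, and 1.86, 1.93, 1.19, 1.26 and 2.34 CPM in 'damaged' oocytes. All 'damaged' libraries lay below GV, a position held by 31.8% of all genes, whereas MII replicate 3 was the highest of all libraries in the fit. *MYH9* fell in 'damaged' oocytes, by 1.07 ± 0.32 (FDR 0.00530), and was at -0.58 ± 0.30 in MII (FDR 0.0912). With library sizes alone it fell in both, by 1.95 in 'damaged' oocytes (FDR 3.37e-05) and 1.5 in MII (FDR 0.000305). The call in 'damaged' oocytes with TMM factors was lost without GV replicate 1, 4 or 5 or without 'damaged' replicate 3 or 4, at FDR 0.0107, 0.0112, 0.0139, 0.0175 and 0.0172. Without MII replicate 3, the value in MII was -0.83 (FDR 0.0139).

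The counts behind *MYH9* were small and depended on its isoforms. The authors' gene counts are scaled by transcript length, and in the matured libraries 61.5% ± 37.8 (SD, n = 5) of *MYH9* TPM in MII and 50.1% ± 21.5 in 'damaged' oocytes were assigned to a transcript of 994 bases, against 9.67% ± 19.3 (n = 4) in GV. Summed without length scaling, the estimated counts were 73, 108, 101 and 165 in GV, 15.1, 16.0, 22, 28 and 17 in MII, and 14, 24, 16.8, 15 and 30.1 in 'damaged' oocytes. On these counts *MYH9* fell in both matured groups, by 1.89 in MII (FDR 3.00e-06) and 1.95 in 'damaged' oocytes (FDR 2.14e-06). The cumulus and granulosa cell markers were also lower in the matured libraries, as given above, and their part in the *MYH9* values was not tested.

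Levels per length, in TPM, show the order of the genes within a group. In GV, *RHOA*, *ECT2* and *CDC42* stood together at 114 ± 8.87, 114 ± 4.68 and 114 ± 0.614 TPM (SD, n = 4), with *RACGAP1* at 94.0 ± 23.1 overlapping them. *ANLN* at 51.3 ± 8.84 and *SPIRE1* at 37.4 ± 13.7 overlapped each other, followed by *FMN2* and, last, *MYH9* at 2.08 ± 0.462. In MII the order had *ECT2* alone at the top, at 222 ± 24.5 TPM (n = 5), and then *RACGAP1* at 78.2 ± 18.3. *ANLN* at 52.6 ± 7.09, *CDC42* at 47.0 ± 8.75 and *RHOA* at 47.0 ± 8.61 could not be told apart by their ranges. *SPIRE1* at 26.8 ± 5.55, *FMN2* at 6.13 ± 0.678 and *MYH9* at 0.755 ± 0.474 were each clear of their neighbours. 'Damaged' oocytes had the same order, with *ECT2* at 209 ± 17.0 and *RACGAP1* at 73.7 ± 28.9 TPM, the latter overlapping *ANLN* at 49.4 ± 11.09.

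A ratio of TPM values within a library does not depend on how libraries are scaled. These ratios were chosen after values were seen and were not tested. *ECT2* to *RHOA* was 1.00 ± 0.0718 in GV, 4.81 ± 0.816 in MII and 4.43 ± 0.470 in 'damaged' oocytes, with a maximum of 1.06 in GV and a minimum of 3.98 in matured libraries. For *ANLN* to *RHOA* the values were 0.452 ± 0.0857, 1.13 ± 0.0876 and 1.06 ± 0.320, also without overlap between GV and matured libraries. *RACGAP1* to *RHOA* went from 0.833 ± 0.250 to 1.66 ± 0.174 and 1.62 ± 0.792, where 'damaged' reached down into GV. For the pair of GTPases, *CDC42* to *RHOA*, the ratio was 1.00 ± 0.0774, 1.01 ± 0.126 and 1.04 ± 0.299, with overlap of all groups. Per message for RhoA, matured libraries of both kinds held more message for the RhoA activator and the ring scaffold than GV libraries did. The TPM of *RHOA* itself went from 114 in GV to 47.0 in MII and 47.5 in 'damaged' oocytes. That of *ANLN* stood at 51.3, 52.6 and 49.4. How many of all genes separate from GV in their ratio to *RHOA* was not counted.

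**Figure D3:**
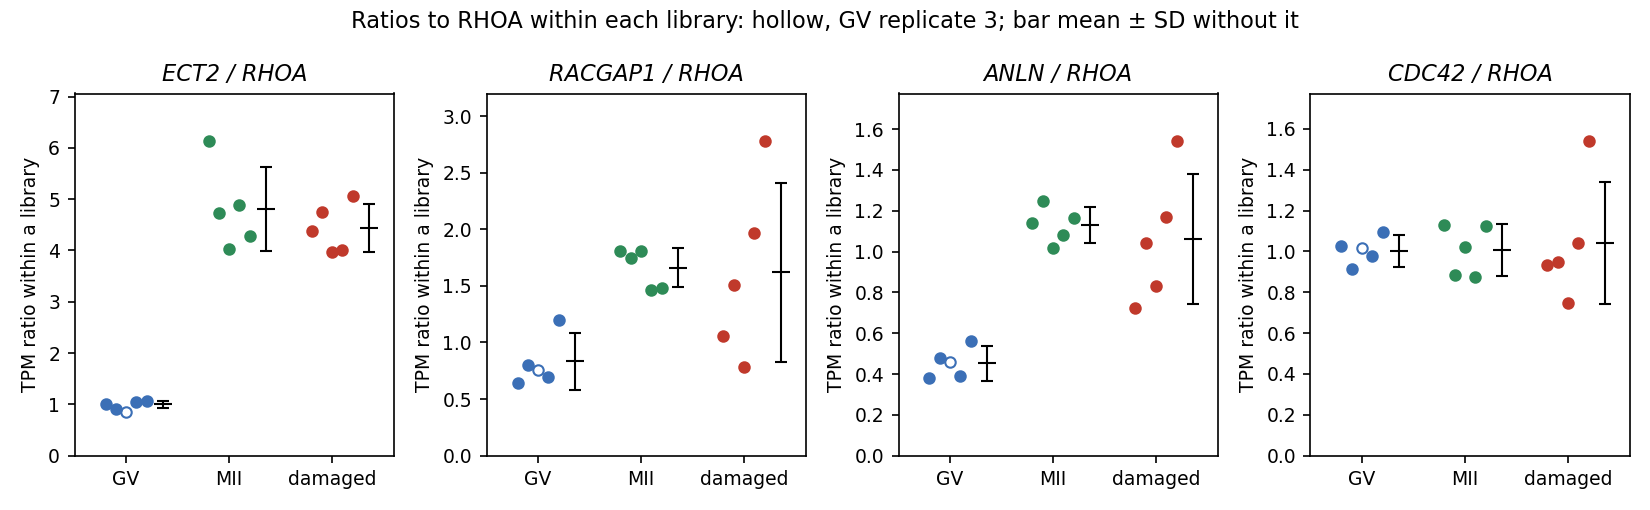
TPM of *ECT2*, *RACGAP1*, *ANLN* and *CDC42* divided by that of *RHOA* in the same library (y axis, from 0), with the mean ± SD of each group beside the points and GV replicate 3 hollow and left out of it. The *ECT2* ratio is at most 1.06 in the filled GV points and at least 3.98 in every matured library, while the *CDC42* ratio averages 1.00, 1.01 and 1.04 in GV, MII and 'damaged', with 1 'damaged' library at 1.54.

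Isoform shares, the percentages of a gene's TPM held by each of its annotated transcripts, changed within 5 of the genes. Of 14 transcripts tested, in *ANLN*, *ECT2*, *RACGAP1*, *SPIRE1* and *CDC42*, 10 changed usage in MII and 10 in 'damaged' oocytes against GV. The 2 transcripts of *RACGAP1*, of *SPIRE1* and of *CDC42* mirror each other, so their calls are not separate shifts. A call needed an FDR under 0.01 in the diffSplice test of limma and a difference of over 10 percentage points, which 24.3% of all 14540 transcripts tested met in each comparison. Counted by gene, 1921 of 5303 had a called transcript in MII and 1923 in 'damaged' oocytes. Between MII and 'damaged' oocytes 0 of the 14 changed, as did 0 of all, with 4.09% at an unadjusted p under 0.05 and 0 of the 14. The 0 of all depended on the setting. Without the filter on low counts 8 transcripts were called. Without MII replicate 5, 'damaged' replicate 1 or 'damaged' replicate 3 there were 1, 2 and 1, and none of these calls lay in the genes described. The study, which used another test, reported changed isoform usage of *RAB4B* and *DTNBP1* between these groups. Shares of transcripts that overlap in sequence are estimates of Kallisto from short reads.

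*ANLN* changed most. Transcript ENSSSCT00000057595.2 (4614 bases) held 44.9, 38.0, 46.2 and 26.6% of *ANLN* in GV and under 0.01% in each of the 10 matured libraries (FDR 1.40e-05 in MII and 2.35e-05 in 'damaged' oocytes). ENSSSCT00000050483.2 (4455 bases) went from 15.5, 57.6, 26.0 and 32.4% in GV to at most 0.426% in MII and 0.840% in 'damaged' oocytes (FDR 6.67e-05 and 5.10e-07). In their place, ENSSSCT00000072874.2 (4725 bases) went from 33.1, 4.0, 27.6 and 40.2% in GV to 85.0, 84.0, 84.6, 85.7 and 88.4% in MII and 76.9, 81.0, 96.2, 88.1 and 91.0% in 'damaged' oocytes. No library of GV overlapped with a matured one in any of these 3 transcripts. How many of all transcripts tested separated in this way was not counted. The gain passed at FDR 0.00688 in MII and 3.15e-05 in 'damaged' oocytes, but that in MII did not pass without GV replicate 2 (FDR 0.0676), without 'damaged' replicate 2 (FDR 0.0155) or without any of MII replicates 1 to 5 (FDR 0.0490, 0.0431, 0.0803, 0.0549 and 0.0508). A further transcript of 4770 bases, ENSSSCT00000018136.4, was at 0.804% ± 1.21 in GV, 14.1% ± 1.64 in MII and 12.5% ± 8.30 in 'damaged' oocytes and was not called (FDR 0.0202 and 0.0315). In 'damaged' replicate 3 it held 1.83%, and in GV replicate 1 2.57%.

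In *RACGAP1*, transcript ENSSSCT00000050218.3 (2956 bases) held 42.1, 46.7, 40.2 and 50.5% in GV. It held 5.55, 6.13, 2.71, 7.28 and 5.88% in MII (FDR 3.28e-09) and 7.65, 7.60, 5.96, 6.83 and 5.61% in 'damaged' oocytes (FDR 1.32e-08). GV replicate 3, outside the fit, was at 40.8%. The other transcript, ENSSSCT00000000233.5 (2900 bases), took the rest, 94.5% ± 1.70 in MII and 93.3% ± 0.930 in 'damaged' oocytes.

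In *SPIRE1*, the longer transcript ENSSSCT00000037229.3 (5129 bases) held 67.8, 89.1, 71.9 and 76.7% in GV, 38.4, 38.6, 39.6, 45.1 and 43.2% in MII (FDR 6.83e-06) and 39.2, 51.3, 47.0, 46.2 and 45.7% in 'damaged' oocytes (FDR 3.60e-05). The shorter one of 3924 bases became the larger part in MII, at 59.0% ± 3.01. In 'damaged' oocytes it was the larger part on average, at 54.1% ± 4.35, with replicate 2 at 48.7%. *CDC42* went from 71.5% ± 5.75 of its 2013-base transcript ENSSSCT00000033211.3 in GV to 49.8% ± 4.35 in MII (FDR 2.78e-05) and 49.8% ± 3.08 in 'damaged' oocytes (FDR 2.73e-05). In *ECT2* the shift was smaller, ENSSSCT00000042727.3 (4103 bases) having 65.0% ± 0.862 in GV, 77.2% ± 1.77 in MII (FDR 2.25e-05) and 77.3% ± 3.05 in 'damaged' oocytes (FDR 4.66e-05). No GV library in the fit overlapped with a matured one for any of these 3 transcripts, and here too the share over all transcripts was not counted. *RHOA* had a single transcript. The second transcript of *FMN2* did not pass the filter on low counts. In *MYH9* the 7494-base transcript had 64.0 to 163 estimated counts in the GV libraries of the fit, and each shorter one at most 11.9 in a library. Usage was not tested in genes left with a single transcript, so neither gene has a usage result.

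**Figure D4:**
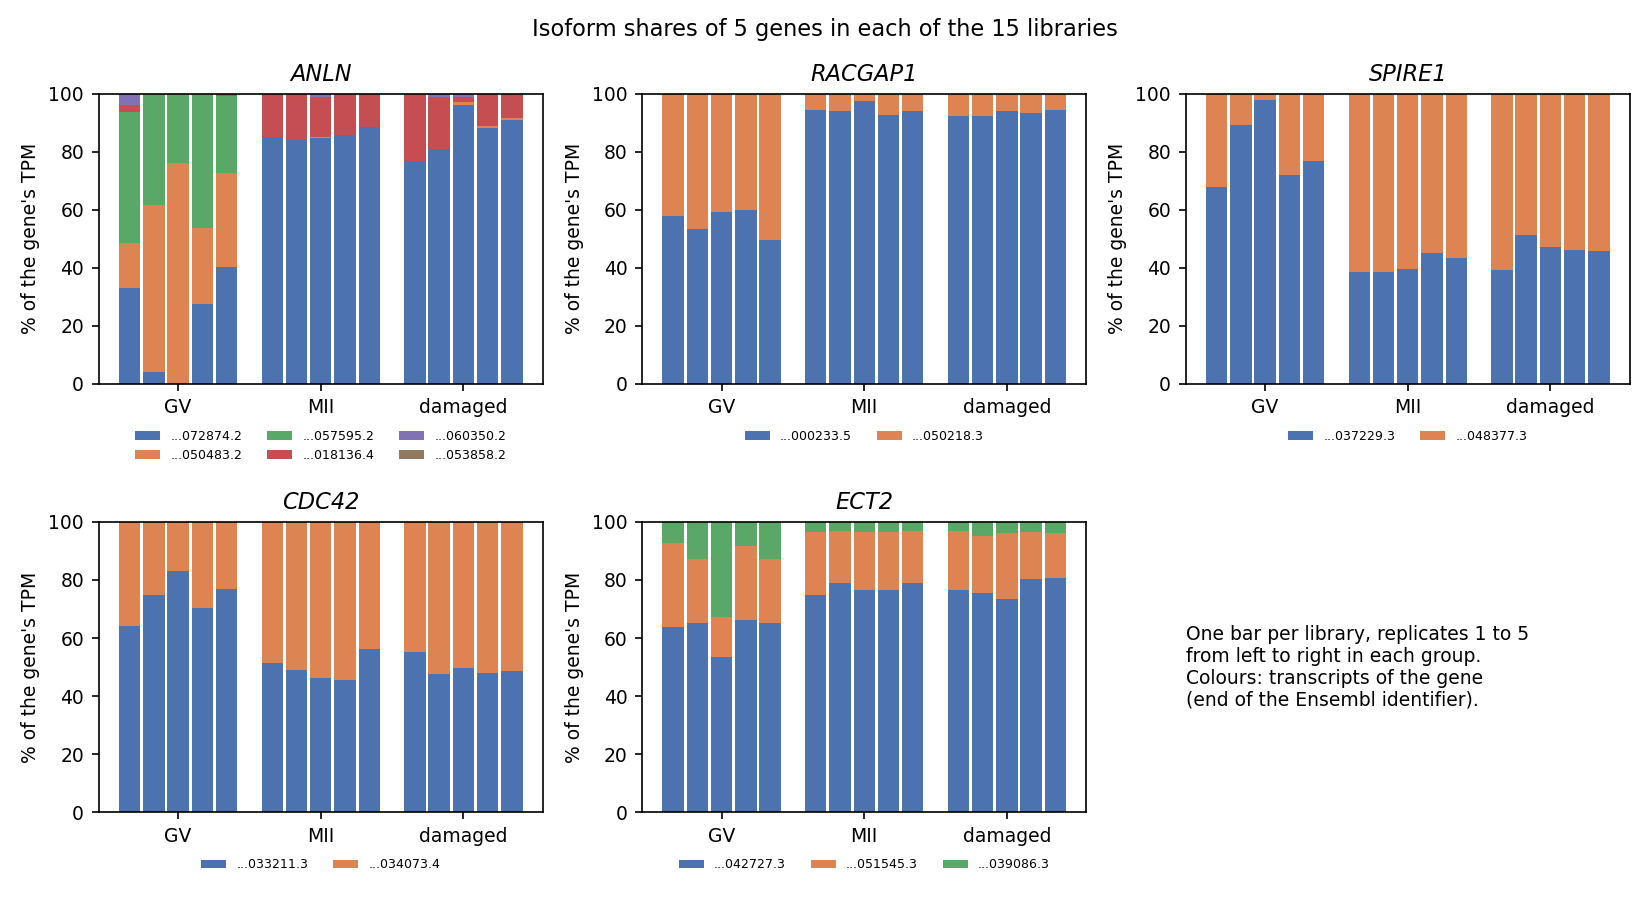
Percentage of each gene's TPM held by each annotated transcript (y axis, 0 to 100%) in *ANLN*, *RACGAP1*, *SPIRE1*, *CDC42* and *ECT2*; each bar is a library, replicates 1 to 5 from left to right, and the third GV bar is the library left out of the fit. The transcripts that fill 38.9% (green) and 32.9% (orange) of *ANLN* on average in GV are nearly gone in all 10 matured bars, while the red *ANLN* transcript varies from 1.83 to 23.1% among the 'damaged' bars.

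The wider pathway was read from a list of 87 other genes in 6 roles, of which 82 were matched by symbol and 77 tested. In MII 37 rose and 18 fell, against 28.2% and 34.2% of all genes. In 'damaged' oocytes 34 rose and 14 fell, against 28.0% and 33.4%. On library sizes alone 15 rose and 37 fell in MII, against 10.9% and 57.5% of all genes. For 'damaged' oocytes these counts were 15 and 35, against 11.2% and 56.0%. Between MII and 'damaged' oocytes 0 of the 77 changed and 0 had an unadjusted p under 0.05. The smallest p in that comparison belonged to *CAPZA2*, an actin capping subunit, at 0.57 ± 0.29, *ARHGDIA*, an inhibitor that holds small GTPases in the cytosol, at 0.90 ± 0.55, and *DIAPH1*, a RhoA-activated formin, at -0.25 ± 0.16.

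Of 11 central spindle and ring genes tested, 8 rose and 0 fell in each matured group. Over all genes 28.2% rose and 34.2% fell in MII, and 28.0% and 33.4% in 'damaged' oocytes. The median log2 fold change of the 11 was 1.67 in MII and 1.63 in 'damaged' oocytes, against -0.17 and -0.14 over all genes. On library sizes alone 8 rose and 3 fell in each, with medians of 0.75 and 0.76 against -1.09 and -1.01. Of all genes, 10.9% and 11.2% then rose and 57.5% and 56.0% fell. Those that rose with TMM factors were *KIF23*, *KIF20A*, *PRC1*, *KIF4A*, *SEPTIN6*, *SEPTIN7*, *SEPTIN11* and *IQGAP1*. *CEP55*, *SEPTIN2* and *SEPTIN9* did not pass, at -0.39, -0.11 and -0.15 in MII and -0.24, 0.02 and -0.52 in 'damaged' oocytes. *SEPTIN6*, which encodes a filament-forming GTPase of the ring, had the largest rise, 2.37 ± 0.29 in MII (FDR 4.94e-07) and 2.18 ± 0.29 in 'damaged' oocytes (FDR 1.56e-06). *KIF23*, named after values were seen because its product binds RACGAP1 in the centralspindlin complex, had 321 ± 32.9 CPM (SD, n = 4) in GV, 1052 ± 84.7 (n = 5) in MII and 990 ± 27.4 in 'damaged' oocytes. Its log2 fold change was 1.71 in MII and 1.63 in 'damaged' oocytes.

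Of the other roles, values use TMM factors unless said otherwise, and the counts stand against the 28.2% of all genes that rose and 34.2% that fell in MII. In 'damaged' oocytes these shares were 28.0% and 33.4%. On library sizes alone they were 10.9% and 57.5% in MII and 11.2% and 56.0% in 'damaged' oocytes. Among nucleators and their activators, 10 of 18 rose and 3 fell in MII, and 8 rose and 1 fell in 'damaged' oocytes, a balance that turned on library sizes alone, to 2 and 7 and to 2 and 6. *CYFIP1*, of the WAVE complex that activates Arp2/3, rose by 1.81 ± 0.12 in MII and 1.83 ± 0.12 in 'damaged' oocytes, while *ARPC3*, an Arp2/3 subunit, fell, at -3.07 and -3.17. Of 13 genes of actin and filament turnover, 5 rose and 5 fell in MII and 4 and 5 in 'damaged' oocytes, or 1 and 7 and 1 and 6 on library sizes alone. The actin monomer-binding *TMSB10* fell by 2.89 in MII and 3.35 in 'damaged' oocytes, and the tropomyosin gene *TPM4* rose by 2.06 ± 0.67 (FDR 0.00990) and 2.12 ± 0.67 (FDR 0.00871), calls that library sizes alone did not give (1.10 and 1.20, FDR 0.146 and 0.117). *TPM4* was low, at a mean of 0.306 CPM in GV. Neither call was made with all 5 GV libraries (FDR 0.0188 and 0.0172) or with matching labels only (FDR 0.0692 and 0.0195). With summed estimated counts the call in 'damaged' oocytes was lost (FDR 0.0157) and that in MII was kept (FDR 0.00757). The edgeR quasi-likelihood test and DESeq2 kept both.

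Around myosin II, 6 of 12 genes rose in each group, and 3 fell in MII and 4 in 'damaged' oocytes, but on library sizes alone 1 rose in each and 6 and 7 fell. *MYL6*, a myosin light chain, fell by 4.46 ± 0.31 in MII and 4.33 ± 0.31 in 'damaged' oocytes, and *PPP1R12A*, the targeting subunit of myosin phosphatase, rose by 1.38 ± 0.12 and 1.41 ± 0.12. *PARD6B*, a partner of CDC42 in cell polarity, rose by 1.99 ± 0.22 in MII and 2.18 ± 0.22 in 'damaged' oocytes. *RHOC* was at -2.16 ± 0.26 in MII and -2.17 ± 0.26 in 'damaged' oocytes. *ARHGDIA* was at -1.85 ± 0.42 in MII and -2.75 ± 0.49 in 'damaged' oocytes, and both genes fell in both groups. At the cortex, 2 of 8 rose in each group, and 3 fell in MII and 1 in 'damaged' oocytes, or 1 rose in each and 5 and 4 fell on library sizes alone. *RDX*, a linker of actin to the membrane, rose by 1.61 ± 0.11 in MII and 1.55 ± 0.11 in 'damaged' oocytes. The calls named for *CYFIP1*, *PPP1R12A*, *PARD6B*, *RDX* and *SEPTIN6* kept their direction and passed on library sizes alone, at lower values, and those for *ARPC3*, *TMSB10*, *MYL6*, *RHOC* and *ARHGDIA* did so with larger falls.

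**Figure D5:**
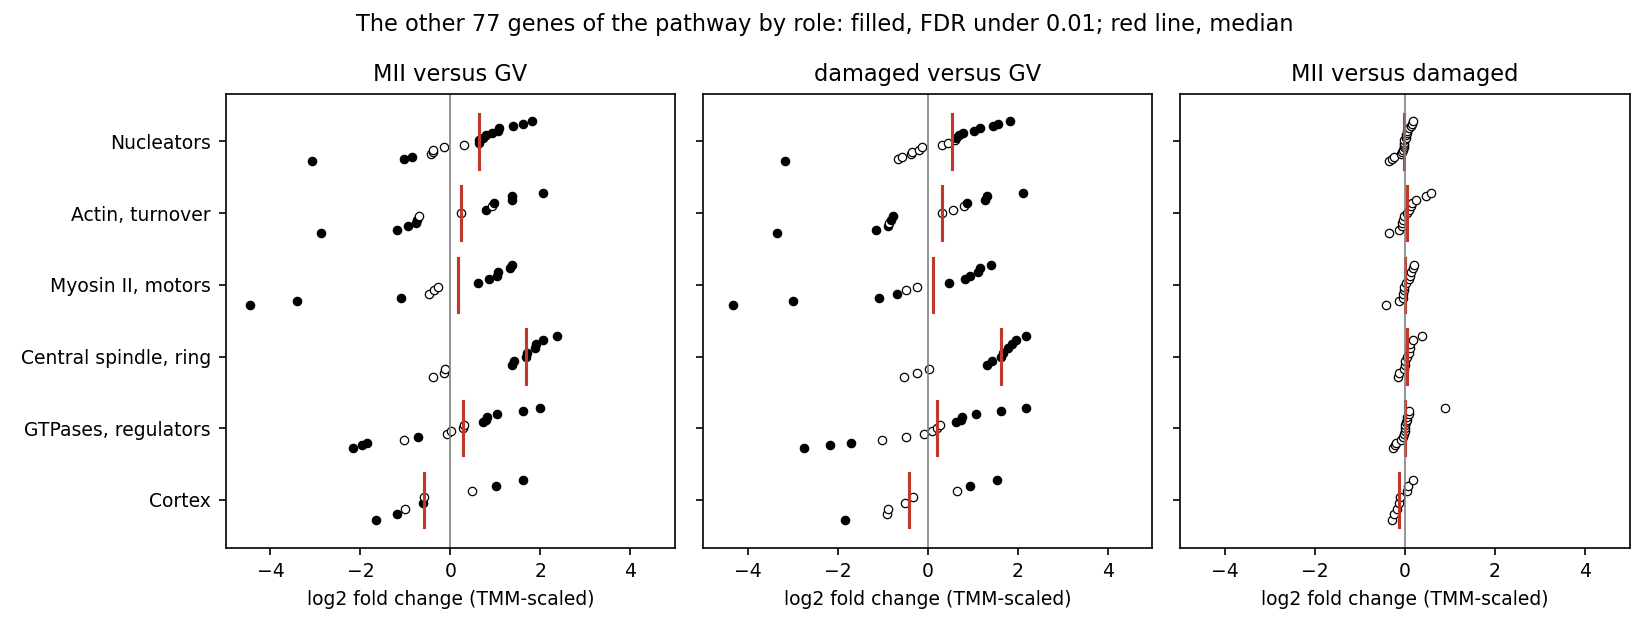
Log2 fold changes with TMM factors (x axis) of the 77 other pathway genes tested, in 6 roles, for the 3 comparisons; each point is a gene, filled where the FDR was under 0.01, and the red line is the median of the role. In the central spindle and ring row 8 of 11 points are filled and all 8 lie above 0 against GV, and no point is filled for MII against 'damaged'. On library sizes alone the 37 rises and 18 falls of the first panel become 15 and 37. Of all genes, 28.2% rose and 34.2% fell in MII, or 10.9% and 57.5% on library sizes alone.

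The genes whose log2 CPM followed *FMN2* most closely over the 14 libraries were *ST6GALNAC3*, *CD8B*, *ZNF367*, *NTRK2* and *PAIP1*, with Pearson correlations of 0.923, 0.905, 0.877, 0.864 and 0.861. These are descriptions over libraries that share 3 groups and a common scaling. *FMN2* itself stood at the 52.1 percentile of the genes tested by TPM in GV, at 59.1 in MII and at 59.6 in 'damaged' oocytes.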

How the data were processed

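Estimated counts and TPM per transcript were made by the authors with Kallisto (0.43 in the submitters' processing notes) on Sscrofa11.1 from single-end reads of SMART-Seq cDNA of polyA RNA. Estimated counts per gene, summarised by the authors with tximport and scaled by transcript length, were deposited in a table of 15 columns. Of these, 8 matched the library they name and served to find each gene's transcripts. The other 7 were not used, and every library's gene counts were rebuilt from its transcript file, which matched the 8 columns within 9.36e-05%. Symbols came from the Ensembl identifiers, positions from RefSeq (Sscrofa11.1).

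Genes were tested with limma 3.58.1 (voom) on counts as computed, with TMM factors and filterByExpr of edgeR 4.0.16 (R 4.3.3), in 1 fit of 3 groups without GV replicate 3. FDR was adjusted over all genes. Isoform usage used diffSplice, where the study used DEXSeq. Alternatives were library sizes, edgeR, DESeq2 1.42.0, 2 filters, all 5 GV libraries, summed estimated counts, library weights, a replicate block, omission of each library, and matching labels only. The fits were tested on simulated data. P-values measure the spread between collections, which the study's methods call independent. TMM factors are a choice made here, as those methods name none. Strand was not stated for the counting.

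The genes and lists were chosen with earlier results of these data known. Named besides the 10 genes are, per comparison with GV and role, the changed gene of largest log2 fold change in each direction, the 3 smallest p-values for MII against 'damaged', and the 5 genes most correlated with *FMN2*. Some results that this rule or these lists give are not reported here.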

Additional observations from a re-analysis of the deposited data

How the results depend on the processing

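A stricter filter of 10 CPM left 7465 genes to test and moved the number changed to 5388 in MII and 5312 in 'damaged' oocytes against GV, and the DEGs to 1387 and 1331. Without one library at a time, 7752 to 8526 genes changed in MII and 7624 to 8334 in 'damaged' oocytes, with 2723 to 3183 and 2593 to 3029 DEGs, and 9 to 10 and 10 to 11 isoforms of the genes described. Against GV, signs turned on library sizes alone for *FMN2* (-0.67 and -0.58 in MII and 'damaged'), *SPIRE1* (-0.30 and -0.27) and *RACGAP1* (-0.13 and -0.29), with the 10 CPM filter for *FMN2* (-0.0796 and -0.0148), and with matching labels only for *RHOA* in MII (0.0302). Between MII and 'damaged' oocytes, where 0 genes changed in any gene-level setting, signs turned on library sizes alone for *CDC42* (-0.0340), *RHOA* (-0.0156) and *SPIRE1* (-0.0319), with the filter for *CDC42* and *SPIRE1* (-0.00878 and -0.00751), with library weights for *CDC42* (-0.0467), and for *SPIRE1* with summed estimated counts (-0.0106) or matching labels only (-0.17). Omitting a library, *CDC42* ranged from -0.0586 to 0.0504, *RHOA* from -0.0821 to 0.108, *FMN2* from -0.101 to 0.0193 and *SPIRE1* from -0.104 to 0.0875. Causes of these changes were not tested.

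The replicate block gave 8354, 8234 and 0 changed genes and 10, 10 and 0 isoforms, and no call at FDR 0.01 of the 8 genes changed, although *ECT2* in MII was no longer a DEG (1.98). The labels do not say whether a replicate number marks a collection. Same-numbered libraries correlated at -0.10 to 0.32 over 13 pairs, 3 of them above 0.1. Of 14 libraries, 9 correlated best with their own number, which is a hint of pairing, although not every pair was above 0.1. The intervals given for MII against 'damaged' oocytes come from the fit without the block, so they do not take a pairing into account.

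Counts were low for *SPIRE2* (at most 3 in a library) and *MYH9* (14 to 165 summed). Of 24 sets of CPM values, 8 genes in 3 groups, none held a library standing apart by Dixon's test.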
